A study of Homo sapiens with 4 samples.

Results

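Neurotransmitter receptor genes were examined in SH-SY5Y cells, an established human neuroblastoma line of sympathetic lineage. Genes were taken by symbol, keeping the GABA, glutamate, nicotinic, muscarinic, serotonin, dopamine and adrenergic receptor families. The rule found 16 of the 14884 genes named in the probe annotation used here, which names 16098 of the 53617 probe sets, so which receptors appear reflects that annotation. They were 13 receptor genes, 8 adrenergic and 5 dopamine, and 3 non-coding genes named after receptors. RefSeq lists 127 symbols that match the rule, of which 111 were not analysed here, among them every GABA, glutamate, nicotinic, muscarinic and serotonin receptor gene that encodes a protein. The data therefore describe the catecholamine receptors and not transmitter receptors as a class.

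Cells received origamicin at 30 µM or its solvent methanol (mock), each for 24 h, with 2 arrays per group. The labels give origamicin as a compound that inhibits PDI, protein disulfide isomerase. Total RNA was read on Human Gene 2.0 ST arrays from Affymetrix. Values are log2 expression per probe set, so a difference of 1 is a doubling. The arrays of a group are called biological replicates without word on separate passages, and p-values then measure only the spread between these arrays.

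Catecholamine receptors are G protein-coupled receptors of the cell surface. Noradrenaline and adrenaline act through alpha-1 receptors, which couple to calcium release, alpha-2 receptors, which restrain adenylyl cyclase and act as autoreceptors on sympathetic nerve endings, and beta receptors, which stimulate adenylyl cyclase. Dopamine acts through D1-like receptors, which stimulate adenylyl cyclase, and D2-like receptors, which restrain it. Sympathetic neurons, the lineage of this cell line, make noradrenaline from dopamine. These receptors carry disulfide bonds in their extracellular part and are folded in the endoplasmic reticulum, where PDI enzymes work. RNA levels do not show how much receptor reached the surface.

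No catecholamine receptor gene passed the test after origamicin, and their changes were small in both directions. A gene counted as dim, and was not tested, when its mean over the 4 arrays was under 3.82, the 40th percentile over the table's probe sets. This left out ADRA1A and the antisense gene GRM5-AS1 and left 14 genes, 12 of them receptors. In the limma fit over 11883 genes, 0 of the 14 passed an adjusted p of 0.05, the same as the 0% of all genes tested. With an intensity trend in limma's prior variance 0 of 14 passed as well, where 4.3% of all genes did, and 1.19% of the 5787 genes whose mean level lay in the range of the receptor genes tested. At an unadjusted p under 0.05 there was 1 gene, the higher ADRA2A. This is 7.14% of the 14, beside 16.4% of all genes tested (7.99% higher, 8.42% lower). With the trend 0 of 14 had an unadjusted p under 0.05, where 19.7% of all genes did.

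Of the 12 receptor genes tested, 6 were higher and 6 lower after origamicin, with changes from -0.28 to 0.27 on the log2 scale. Of all genes tested, 47.8% were higher. The median change of the 14 members was 0.07, beside -0.01 for all genes tested. The median size of the change, without its sign, was 0.13 for the members and 0.11 for all genes. For all 12 receptor genes the 95% interval of the change lay between -1 and 1, so a change by a factor of 2 fell outside every interval, while the smaller changes that the intervals still hold were not detectable with these arrays. The 2 groups did not overlap for 4 of the 14 members, ADRA2A, DRD1, DRD2 and ADRA2C. That is 28.6%, where 48.6% of all genes tested, and 39.8% of those in the receptors' range of levels, had groups that did not overlap. The first 3 were higher, 21.4% beside 22.7% of all genes, and ADRA2C was lower, 7.14% beside 25.8%. The exact permutation test on a single gene cannot give a p below 0.333 with 2 arrays against 2.

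**Figure D1:**
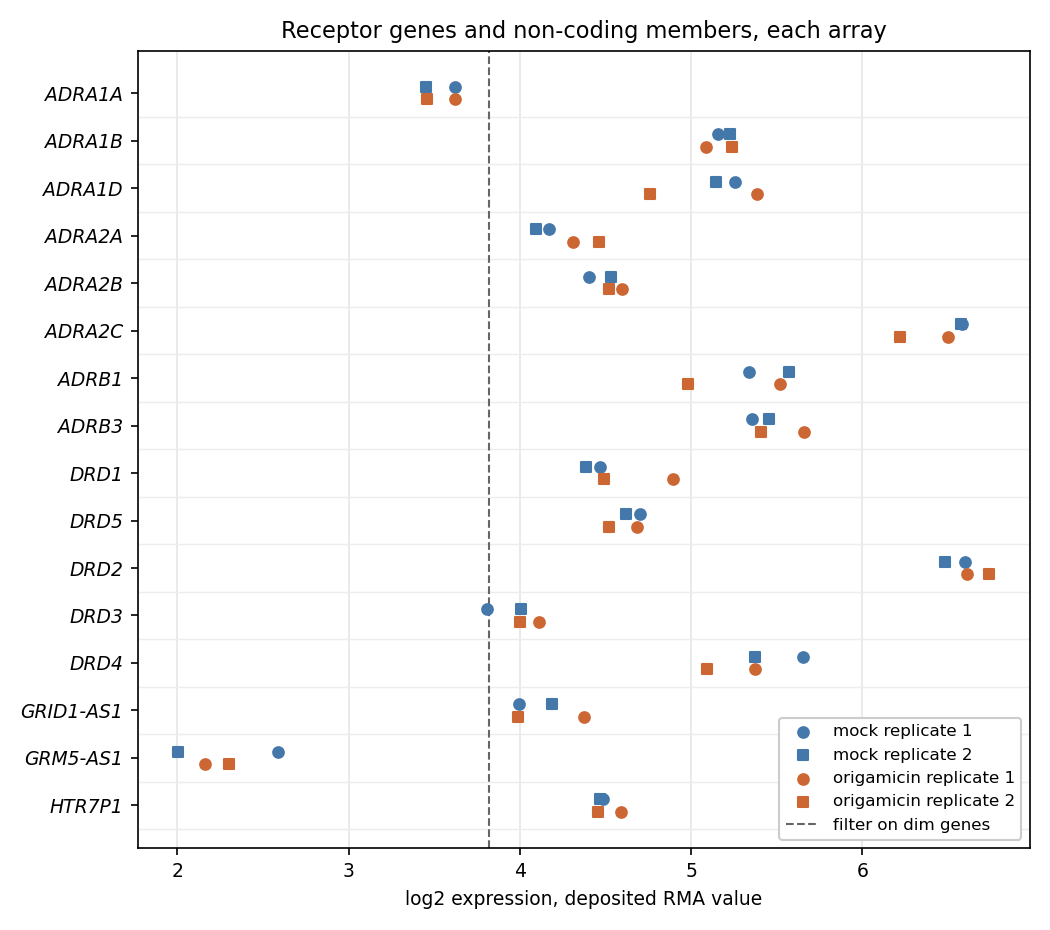
Deposited log2 expression (x axis) of the 16 members (y axis) on each array, with circles for replicate 1 and squares for replicate 2 of each group. ADRA1A and GRM5-AS1 lie below the dashed filter at 3.82, and ADRA2C and DRD2 hold the highest values, between 6.22 and 6.74.

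**Figure D2:**
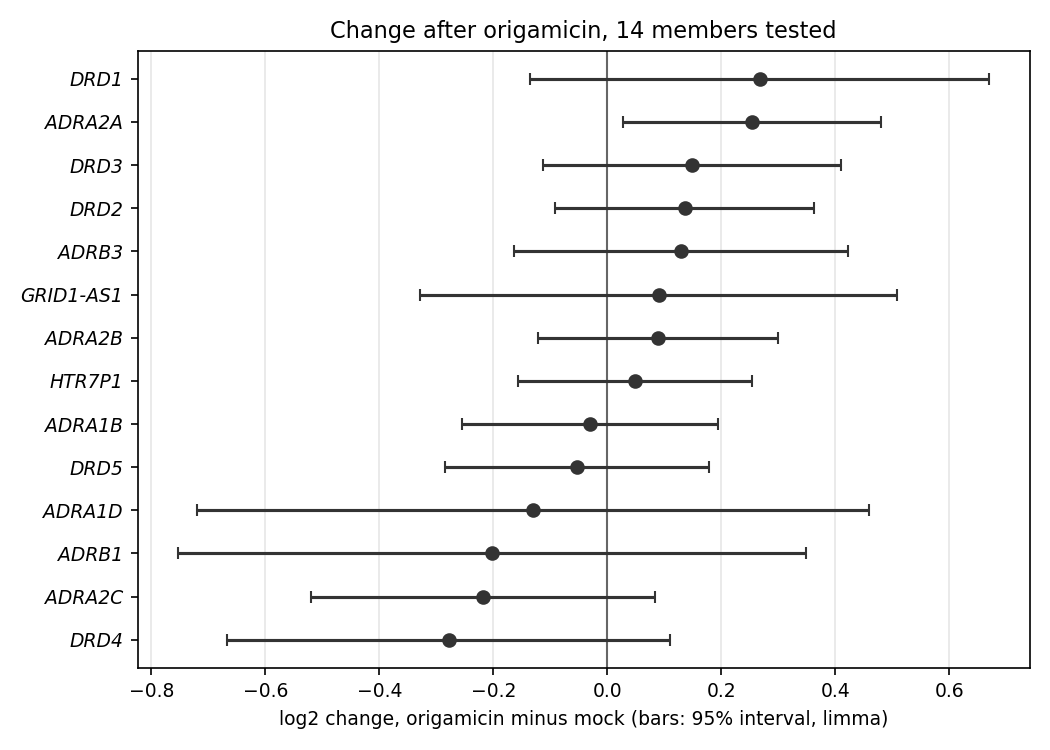
Log2 change (x axis, origamicin minus mock) of the 14 members tested (y axis), with the 95% interval from limma over 2 arrays per group. The interval of ADRA2A, 0.03 to 0.48, is the one that leaves out 0.

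Of the 3 alpha-2 subtypes, ADRA2A was higher and ADRA2C lower on both treated arrays, and neither passed the adjusted test. ADRA2A encodes the alpha-2A receptor, the main autoreceptor of noradrenergic neurons. It measured 4.17 and 4.10 on the mock arrays and 4.31 and 4.46 on the origamicin arrays. Both treated arrays were above both mock arrays. The difference was 0.25 ± 0.09 (moderated SE, n = 2 per group), a 1.19-fold higher value, with an unadjusted p of 0.035 and an adjusted p of 0.27 in limma. ADRA2A lies at the low end of the levels tested, and with the intensity trend its SE was 0.15 and its adjusted p 0.43. The unadjusted p stayed under 0.05 in 4 of the 13 alternative analyses that could include the gene.

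ADRA2C encodes the alpha-2C receptor, a second brake on catecholamine release that is also known from adrenal chromaffin cells. It measured 6.58 on each mock array and 6.50 and 6.22 on the origamicin arrays. Both treated arrays were below the mock arrays, 1 of them by little. The difference was -0.22 ± 0.11 (adjusted p = 0.43 in limma). It was -0.08 without origamicin replicate 2 and -0.36 without origamicin replicate 1, so the size rests on which treated array is used. ADRA2B, the third subtype, measured 4.40 and 4.53 in mock and 4.59 and 4.52 in treated cells. The groups overlapped, at a difference of 0.09 ± 0.08 (adjusted p = 0.63). Whether ADRA2A and ADRA2C differ in their response was not tested.

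The promoters of these 2 genes are shown because their groups did not overlap in opposite directions within 1 subfamily. Each is the 250 bases upstream of the RefSeq start on the plus strand of GRCh38.p14, with CpG dinucleotides in capitals. ADRA2A lies at chr10:111076779-111077028 and ADRA2C at chr4:3766135-3766384.
ADRA2A: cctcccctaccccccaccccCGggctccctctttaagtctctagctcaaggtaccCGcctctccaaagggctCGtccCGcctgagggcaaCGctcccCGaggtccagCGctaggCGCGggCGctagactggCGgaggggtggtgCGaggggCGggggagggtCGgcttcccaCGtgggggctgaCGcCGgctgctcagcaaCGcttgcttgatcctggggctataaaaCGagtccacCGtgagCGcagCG
ADRA2C: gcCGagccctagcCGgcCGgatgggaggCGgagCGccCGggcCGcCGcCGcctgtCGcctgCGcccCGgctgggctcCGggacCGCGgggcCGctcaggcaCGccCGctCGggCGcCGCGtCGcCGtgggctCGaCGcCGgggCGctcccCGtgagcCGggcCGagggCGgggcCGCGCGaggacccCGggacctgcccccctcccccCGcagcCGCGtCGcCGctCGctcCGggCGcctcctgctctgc
The ADRA2A window holds 22 CpG dinucleotides at 68.8% G and C, and the ADRA2C window 44 at 84.8%, above 99.5% of the 35116 RefSeq promoter windows of this length. The median over those windows was 11 CpG dinucleotides and 58.0% G and C. RefSeq promoters were matched for 10 of the 16 members. None of the 10 held TGACGTCA (the cyclic AMP response element), TGANTCA (AP-1) or GCGTGGGCG (EGR factors) on either strand, motifs that 1.65%, 6.57% and 0.72% of all windows hold. With so few windows and such rare motifs, this says only that these letters are not in these windows.

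Among the alpha-1 receptors, ADRA1B showed the smallest change of the receptors tested. It measured 5.16 and 5.23 in mock and 5.09 and 5.24 in treated cells, a difference of -0.03 ± 0.08 with a 95% interval from -0.25 to 0.19. ADRA1D measured 5.26 and 5.15 in mock cells, 5.38 on origamicin replicate 1 and 4.76 on origamicin replicate 2. Its treated arrays lay on either side of the mock arrays, and the difference was -0.13 ± 0.22 (adjusted p = 0.82 in limma). It turned to 0.18 without origamicin replicate 2 and was -0.44 without origamicin replicate 1. ADRA1A, below the filter, measured 3.62 and 3.45 in mock and 3.62 and 3.46 in treated cells. In the fit with no filter its difference was 0.01 ± 0.11.

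Both beta receptors tested had overlapping groups and treated arrays farther apart than the mock arrays. ADRB1, the beta-1 receptor known best from heart muscle, measured 5.34 and 5.57 in mock cells and 5.52 and 4.98 in treated cells. The difference was -0.20 ± 0.21 (adjusted p = 0.69 in limma), and the value turned to 0.07 without origamicin replicate 2. ADRB3, the beta-3 receptor known from fat tissue, measured 5.35 and 5.45 in mock and 5.66 and 5.41 in treated cells. It stood at 0.13 ± 0.11 (adjusted p = 0.62).

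Dopamine receptors of both classes showed values on either side of 0. In the D1-like class, DRD1 measured 4.47 and 4.39 in mock cells and 4.90 and 4.49 in treated cells. The groups did not overlap, but the nearest arrays differed by less than the gap inside either group. The difference was 0.27 ± 0.15 (adjusted p = 0.45 in limma). It was 0.47 without origamicin replicate 2 and 0.07 without origamicin replicate 1. DRD5, the other D1-like gene, measured 4.70 and 4.62 in mock and 4.69 and 4.52 in treated cells. It stood at -0.05 ± 0.09, with overlapping groups.

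In the D2-like class, DRD2 encodes the D2 receptor, the autoreceptor of dopamine neurons and the target of antipsychotic drugs. It measured 6.60 and 6.48 in mock and 6.61 and 6.74 in treated cells. Both treated arrays were above the mock arrays, 1 of them by 0.01. The difference was 0.14 ± 0.08 (adjusted p = 0.49 in limma), with a 95% interval from -0.09 to 0.36. DRD3 measured 3.81 and 4.01 in mock and 4.11 and 3.999 in treated cells, close to the filter, with a difference of 0.15 ± 0.10 and overlapping groups.

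DRD4 gave the lowest change of the members. It measured 5.65 and 5.37 in mock cells and 5.37 and 5.09 in treated cells, and mock replicate 2 and origamicin replicate 1 held the same value. The difference was -0.28 ± 0.15 (adjusted p = 0.43 in limma), a 1.21-fold lower value. It equalled the gap between the arrays inside each group. With the replicate number as a block the gap is removed, and the adjusted p was 0.30.

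The 3 non-coding members are not receptors. GRID1-AS1, an antisense gene at the delta glutamate receptor gene GRID1, measured 3.99 and 4.19 in mock and 4.37 and 3.99 in treated cells. HTR7P1, a pseudogene of the serotonin receptor gene HTR7, measured 4.49 and 4.47 in mock and 4.59 and 4.46 in treated cells. Groups overlapped for both, with differences of 0.09 ± 0.16 and 0.05 ± 0.08. A pseudogene shares sequence with its parent gene, so the HTR7P1 value is uncertain to the extent that probes read both. GRM5-AS1 lay below the filter, at 2.59 and 2.00 in mock and 2.16 and 2.30 in treated cells.

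The treated arrays lay farther apart for the receptors than for the middle of all genes. Origamicin replicate 2 was below origamicin replicate 1 for 9 of the 12 receptor genes and for 11 of the 14 members, 78.6%. This held for 49.7% of all genes tested and for 54.6% of those in the receptors' range of levels. The median gap between the treated arrays, without its sign, was 0.21 for the 12 receptor genes, 0.10 for all genes, and 0.15 for the 5787 genes with a mean level in the same range as the receptors. Between the mock arrays the median gaps were 0.11, 0.09 and 0.13. Mock replicate 2 was below mock replicate 1 for 8 of the 14 members, where this held for 47.2% of all genes. For 9 of the 12 receptor genes the largest gap inside a group was larger than the difference between the groups. The share of all genes for which this held was not computed. Over all genes tested the median change without its sign was 0.11, near the median gaps of 0.09 and 0.10. These medians do not give that share, so whether the count is particular to the receptors was not tested. The part of the gaps between treated arrays in the changes above was not tested beyond leaving out each array.

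**Figure D3:**
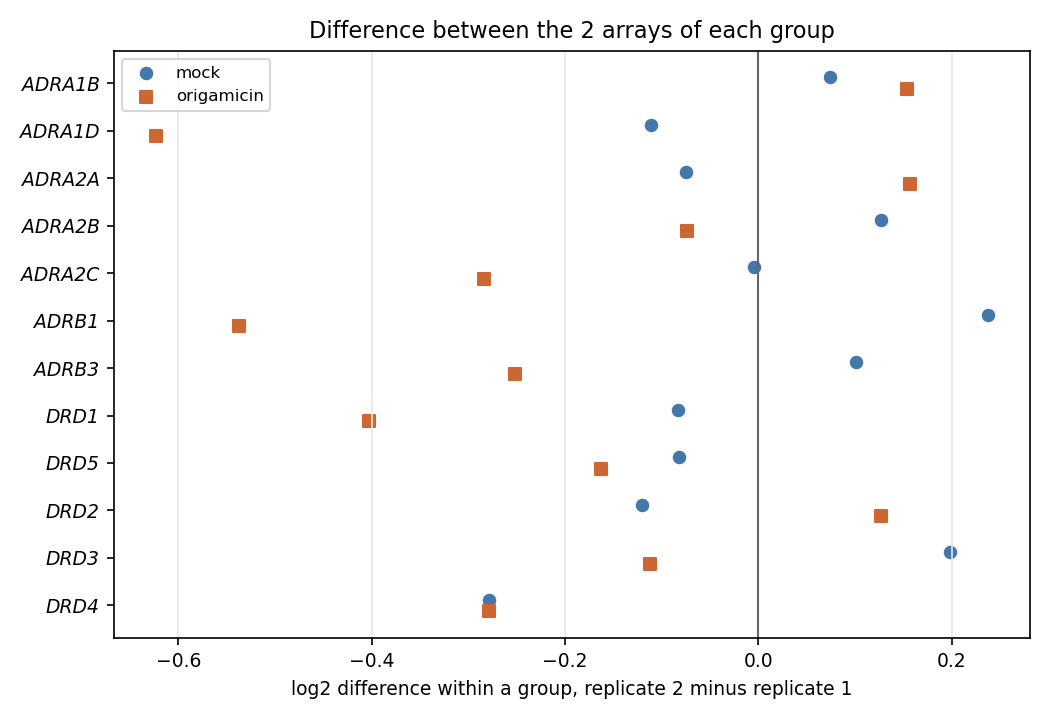
Log2 difference between the arrays of 1 group, replicate 2 minus replicate 1 (x axis), for the 12 receptor genes tested (y axis), with blue circles for mock and orange squares for origamicin. Origamicin gaps reach -0.62 for ADRA1D and -0.54 for ADRB1, and 9 of 12 lie left of 0.

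Genes that make and clear the transmitters were described from a list of 40, of which 14 were named and 12 tested. Of the 12, 1 was higher and 11 lower, with a median change of -0.18, where 47.8% of all genes tested were higher and their median was -0.01. None passed an adjusted p of 0.05 in the limma fit, and 4 had an unadjusted p under 0.05, all lower, where 8.42% of all genes did on that side. With the intensity trend 2 of 12 passed, DDC and BCHE, where 4.3% of all genes did. DDC, the decarboxylase that forms dopamine, measured 8.73 and 8.76 in mock and 8.14 and 8.16 in treated cells. The groups did not overlap, at -0.59 ± 0.06 (adjusted p = 0.095 in limma, and 0.0028 with the intensity trend).

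Other steps of the pathway were chosen for the ligands they handle, after their values were seen. DBH, which turns dopamine into noradrenaline, measured 12.5 on each mock array and 12.4 and 12.3 on the treated arrays, at -0.17 ± 0.06 (adjusted p = 0.30 in limma, and 0.056 with the trend). TH, the rate-limiting enzyme of catecholamine synthesis, stood at -0.01 ± 0.12 with overlapping groups, and PNMT, which forms adrenaline, at -0.32 ± 0.20, also with overlap. The breakdown enzymes MAOA and MAOB stood at -0.23 ± 0.12 and 0.04 ± 0.10. BCHE, a cholinesterase, measured 7.16 on each mock array and 6.79 and 6.86 on the treated arrays. It stood at -0.34 ± 0.07 (adjusted p = 0.17 in limma, and 0.0497 with the trend).

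**Figure D4:**
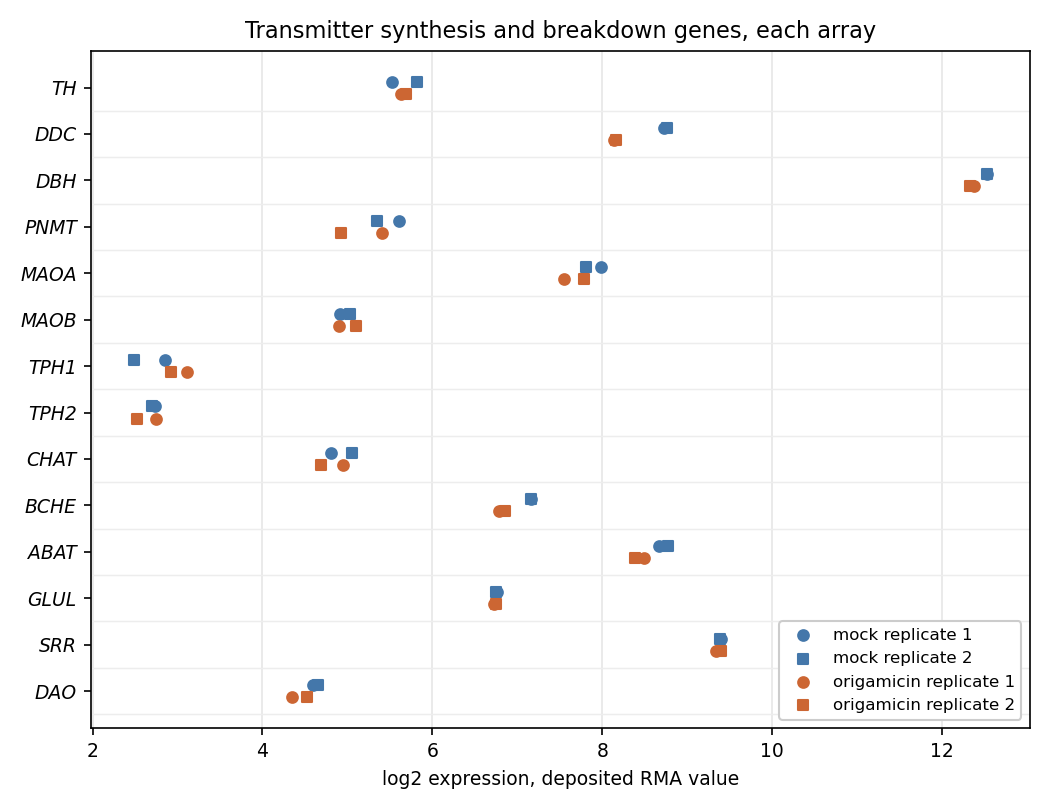
Deposited log2 expression (x axis) of the 14 named genes of transmitter synthesis and breakdown (y axis) on each array, with circles for replicate 1 and squares for replicate 2. The treated arrays of DDC sit at 8.14 and 8.16, below the mock arrays at 8.73 and 8.76, while the groups of TH overlap.

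Genes that assemble, anchor or cluster transmitter receptors went both ways. Of 61 listed, 40 were named and 37 tested, with 15 higher, 22 lower and a median of -0.03. None passed in the limma fit, and 8 had an unadjusted p under 0.05 (4 higher, 4 lower), where 16.4% of all genes did. With the intensity trend 2 of the 37 passed, KCTD12 and CBLN4, beside 4.3% of all genes, so both counts lie near the background. KCTD12, an auxiliary subunit of GABA-B receptors, measured 7.65 and 7.50 in mock and 8.10 and 8.13 in treated cells. It stood at 0.54 ± 0.08 (adjusted p = 0.15 in limma, and 0.013 with the trend). Its relative KCTD16 stood on the other side of 0, at -0.55 ± 0.13 (0.19 in limma and 0.065 with the trend, both adjusted p). CBLN4, a secreted synapse organiser, stood at -0.79 ± 0.18 (adjusted p = 0.19 in limma, and 0.049 with the trend). HAP1, a trafficking partner of GABA-A receptors, stood at 0.36 ± 0.07 (adjusted p = 0.17).

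Receptors for other transmitters and for peptides gave no call either. Of 55 listed, 31 were named and 20 tested, 6 higher and 14 lower, with a median of -0.05. None passed in either limma fit, and 4 had an unadjusted p under 0.05 (1 higher, 3 lower), near the 16.4% of all genes. The somatostatin receptor SSTR5 measured 5.91 and 5.94 in mock and 5.65 and 5.61 in treated cells, and stood at -0.29 ± 0.06 (adjusted p = 0.18). The histamine receptor HRH3, known as an inhibitory autoreceptor, measured 7.35 and 7.31 in mock and 7.06 and 6.93 in treated cells, at -0.34 ± 0.08 (adjusted p = 0.18 in limma, and 0.059 with the trend). The galanin receptor GALR2 stood at 0.36 ± 0.11 and the histamine receptor HRH2 at 0.44 ± 0.18 (adjusted p = 0.26 and 0.34).

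Markers of the cell line's lineage were bright, apart from TH at 5.52 to 5.82. Of 17 noradrenergic neuroblastoma markers, 14 were named and tested, 13 of them lower. DDC, DBH and TH are also among the genes that make and clear the transmitters, so the lists are not independent. In the limma fit 0 of the 14 markers passed an adjusted p of 0.05. At an unadjusted p under 0.05, 9 of the 14 were lower, where 8.42% of all genes tested were. With the intensity trend 7 passed, all lower, where 4.3% of all genes passed in either direction. Their mean level was 10.0 and 10.1 on the mock arrays and 9.75 and 9.77 on the treated arrays. Of 15 markers of mesenchymal neuroblastoma cells, 13 were named and 12 tested, 10 of them higher. In the limma fit 0 passed, and 5 were higher at an unadjusted p under 0.05, where 7.99% of all genes tested were. With the trend 5 passed, all higher, beside the same 4.3% of all genes. The 13 had means of 5.98 and 5.99 in mock and 6.29 and 6.23 in treated cells. In bulk RNA, fewer cells of a type and less RNA per cell cannot be told apart, and the part of either list in the receptor values was not tested. Glial markers averaged 4.65 to 4.76 over the 4 arrays, skeletal muscle markers 4.46 to 4.70, and blood and endothelial markers 3.87 to 4.11. The muscle marker DES was brighter than its list, at 6.40 and 5.99 in mock and 6.72 and 7.16 in treated cells. The other 2 muscle markers tested were lower after origamicin. An array gives no true 0, and no detection p-values were used here. No receptor can therefore be called present or absent from its level.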

How the data were processed

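The deposited values are log2 expression per probe set made by the authors; the submitters' processing notes name RMA and limma, without versions. Build and annotation: not given in the sources used here. Array medians lay between 4.37 and 4.42, and values were not normalized again. Of 53617 probe sets, 16098 carry 1 gene symbol, 0 of the members has more than 1 such probe set, and for other genes the one with the highest mean was kept. Genes below the 40th percentile (3.82) were left out, leaving 11883. The comparison used lmFit and eBayes of limma 3.58.1 under R 4.3.3, two-sided, over all 4 arrays with no covariate and with Benjamini-Hochberg adjustment over the 11883 genes. The fit was also run on simulated data. The changes set there were larger than any member change, so that run does not bear on changes as small as these. Named are all members, and of each other list the genes past an adjusted p of 0.05 in either fit and the 2 with the smallest p each way; DBH, TH, PNMT and MAOA were added after their values were seen. The alternatives were a replicate block, other filters, normalizations, prior variances and probe set rules, all probe sets in place of genes, and leaving out each array. Members and lists were chosen with earlier results of these data known. Arrays have no counting depth, and their number limits the precision. Promoters are from RefSeq (GRCh38.p14).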

Additional observations from a re-analysis of the deposited data

How the results depend on the processing

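No member passed an adjusted p of 0.05 in any of the 14 alternatives, and the smallest adjusted p over all limma fits was 0.27. The count of members higher at an unadjusted p under 0.05 was 1 in the chosen fit, ADRA2A. It was 0 with the replicate block and all probe sets, and with the 60th percentile filter, which leaves ADRA2A untested. It was also 0 with equal array medians, quantile normalization, cyclic loess and the intensity trend. Without origamicin replicate 2, ADRA2A stood at 0.18 and DRD1 at 0.47. Without origamicin replicate 1, ADRA2A stood at 0.33 and DRD1 at 0.07. The count lower, 0 in the chosen fit, was 1 with the replicate block (DRD4). With origamicin replicate 1 left out, ADRA1D, ADRA2C and ADRB1 stood at -0.44, -0.36 and -0.47. With origamicin replicate 2 left out, these 3 genes stood at 0.18, -0.08 and 0.07. The 60th percentile filter left 7 members and a median change of -0.13, since it removes the dimmer genes. The median was -0.01 to 0.12 with an array left out. No label says whether same-numbered arrays were prepared together. Over the genes tested, their deviations from the group means correlated at -0.02. With 2 arrays per group this cannot settle whether they form pairs.

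The replicate block, filters, prior variances, probe set rules and the fit on all probe sets cannot alter a member's log2 change. Its sign could turn only with another normalization or with an array left out. Of the 14 members tested, 8 kept their sign in every alternative they entered and 6 took the other sign when an array was left out. Their ranges with an array left out were -0.10 to 0.28 for GRID1-AS1 (also -0.0075 without mock replicate 1), -0.107 to 0.047 for ADRA1B (also 0.0070 without mock replicate 2), -0.0195 to 0.12 for HTR7P1, -0.442 to 0.181 for ADRA1D, -0.471 to 0.066 for ADRB1 and -0.135 to 0.028 for DRD5. The cause was not tested. With an array left out, the lone array of its group is assumed to vary like the others.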
